A study of Mus musculus with 34 samples.

Results

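Genes of the integrated stress response and of cytosolic tRNA charging were followed across 5 forms of the mouse glucocorticoid receptor (GR). The 32 genes, taken from a fixed list by name out of 55341 gene names in the count tables, were 21 genes of the pathway driven by the transcription factor ATF4 and 11 cytosolic aminoacyl-tRNA synthetases. The cells were mouse mammary adenocarcinoma 3617-derived GRKO cells, in which the endogenous receptor is knocked out, and each line stably expressed a GFP-tagged mouse GR, either WT, Y551A or D647V, or one of the forms labelled Y551A-Dim and D647V-Tetra. Every group, controls included, therefore carried the knockout and the tag, and each receptor form was represented by 1 line. Cells grown with 5 µg/ml tetracycline and non-essential amino acids, and kept in 10% charcoal/dextran-treated serum for at least 24 h, received 100 nM dexamethasone (Dex) or ethanol (EtOH) for 2 h. Total RNA was sequenced in 2 library sets: set 1 held 3 libraries of each treatment for WT and both Y551A lines, and set 2 held 3 of each for both D647V lines but 2 of each for WT. The labels did not say whether replicates were separate cultures, so p-values measured the spread between these libraries, and a difference between lines cannot be told apart from a difference between clones.

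In the integrated stress response, kinases that sense amino acid shortage, misfolded protein, viral RNA or haem shortage phosphorylate the initiation factor eIF2, which lowers general translation while ATF4 mRNA is translated more. ATF4 activates genes for amino acid synthesis and uptake, for tRNA charging and for feedback control, often through the C/EBP-ATF response element (CARE). In cultured tumour cells the pathway is known to follow amino acid supply and mTORC1 activity.

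The promoter sequences are shown because ATF4 is known to act through this element and because the listed genes moved together at baseline. RefSeq windows from 250 bases before to 50 bases after the start site (GRCm38.p6) were matched by symbol for 25 of the 32 genes. The CARE core, spelled TGATGNAA and searched on both strands, was found in 10 of these 25 genes (40%), against 4.51% of 27025 genes with such a window. It was found in 5 of 7 listed synthetases with a window, in 0 of 8 other cytosolic synthetase genes and in 0 of 14 mitochondrial ones. Among the listed ATF4-pathway genes it was in 5 of 18, and among other ATF4 targets in 7 of 19. It was also in 1 of 11 genes for eIF2 kinases, eIF2 and eIF2B, and in 1 of 12 ATF6 and XBP1 chaperone genes. The GR palindrome, the inverted repeat of the receptor's consensus element, searched without mismatches, was in 0 of the 25 windows and in 0.0111% of all genes. With matches in only 3 of 27025 genes, none was likely in 25 windows, so this search cannot show whether GR sites are present. The upstream promoter of Chac1, which with Ddit3 was called most often after Dex, lies at chr2:119350992-119351228 on the plus strand, with the CARE core in capitals, read as its reverse complement.
Chac1: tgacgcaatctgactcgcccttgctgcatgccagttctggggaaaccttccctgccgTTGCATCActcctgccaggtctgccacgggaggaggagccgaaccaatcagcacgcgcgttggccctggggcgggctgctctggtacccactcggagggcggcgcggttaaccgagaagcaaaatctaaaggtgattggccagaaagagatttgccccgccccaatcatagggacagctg
The 30-base stretches around the matches of 7 further genes are given in gene orientation, 5′ to 3′, with the CARE core in capitals.
Asns: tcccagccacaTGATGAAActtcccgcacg
Trib3: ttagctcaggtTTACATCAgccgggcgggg
Pck2: agccttcaaagTTACATCAgtatcttacag
Yars: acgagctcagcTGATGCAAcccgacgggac
Gars: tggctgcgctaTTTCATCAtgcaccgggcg
Iars: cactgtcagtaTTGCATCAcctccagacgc
Tars: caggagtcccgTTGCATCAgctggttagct
The first base of the core lay upstream of the start site in Chac1 (193 bases), Pck2 (103), Gars (30), Asns (23) and Tars (15), and downstream in Trib3 (15), Iars (8) and Yars (4). These stretches lie at chr6:7693214-7693243 (Asns, minus strand), chr2:152344028-152344057 (Trib3, minus), chr14:55540152-55540181 (Pck2, plus), chr4:129189895-129189924 (Yars, plus), chr6:55037960-55037989 (Gars, plus), chr13:49682126-49682155 (Iars, plus) and chr15:11399655-11399684 (Tars, minus). Vldlr also held a match. A match describes letters only, and ATF4 binding was not measured.

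Total assigned counts ranged from about 44998200 to 70124600 per library in set 1 and from 60277900 to 79776600 in set 2, both mates of a pair counted. Epithelial markers (Krt8, Krt18, Krt19, Epcam, Cdh1) summed to at most 0.974 CPM (counts scaled to library size) in any library, and Epcam was at 0 in all. The basal mammary markers summed to between 3.27 and 19.9 CPM. Fibroblast and mesenchymal markers summed to between 6132 and 8119 CPM, among them Vim (3905 to 5355 CPM) and Col1a2 (1628 to 2741 CPM). These 5 epithelial genes were thus near absent from the labelled mammary adenocarcinoma, and cell identity was not tested. Dex raised Per1, Sgk1 and Tsc22d3, classical GR targets, in all 6 line and set combinations, and Nr3c1, which encodes GR, was read at 234 to 380 CPM in every library. Both sets were scaled and tested separately, so levels set across them are descriptions.

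Of the 32 genes, 30 passed the filter on low counts in both sets and were tested. Stc2, a secreted stress-induced glycoprotein, was at 0 in all 34 libraries, and Vldlr, a lipoprotein receptor, reached at most 0.028 CPM. Cth, the last enzyme of cysteine synthesis from methionine, passed the filter at no more than 0.29 CPM in any library. Medians below are over the other 29 tested genes, since a fitted change of a gene at a few reads has no stable size. Per kilobase of exon, the scale for comparing genes, the WT EtOH libraries of set 1 were led by Atf4 (361 ± 5.91 CPM per kb, SD, n = 3), Asns (289 ± 5.26) and Phgdh (214 ± 3.43). Among tested genes other than Cth, Sesn2 (11.9 ± 0.485) and Ppp1r15a (5.14 ± 0.0668) were lowest. The neighbours in this order stood apart by more than their spread at the top, while Nars (107 ± 2.35), Atf5 (105 ± 2.82) and Ddit4 (102 ± 4.88) did not.

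Without hormone, 29 of the 30 tested genes were lower in Y551A than in WT, and none was higher, by the quasi-likelihood test of edgeR, with p-values adjusted by Benjamini and Hochberg's method over all 16140 genes of set 1. The comparison was broad, with 42.5% of all genes called and 23.5% called lower, so the share of the list is read against that figure. The median change of the 29 genes was -0.48 on the log2 scale, and that of all genes tested was -0.0006. In each of the 29 called genes, the 3 Y551A libraries lay below the 3 WT libraries. The share of all genes with such separation was not computed, here or below, and separation adds little to a call. For Dex in WT, the groups stood apart in 14 of the 30 genes in each set, though only 3 (set 1) and 2 (set 2) were called. The one gene not called was Ppp1r15a, the regulatory subunit that directs dephosphorylation of eIF2 (-0.06 ± 0.07, SE, adjusted p = 0.562).

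**Figure D1:**
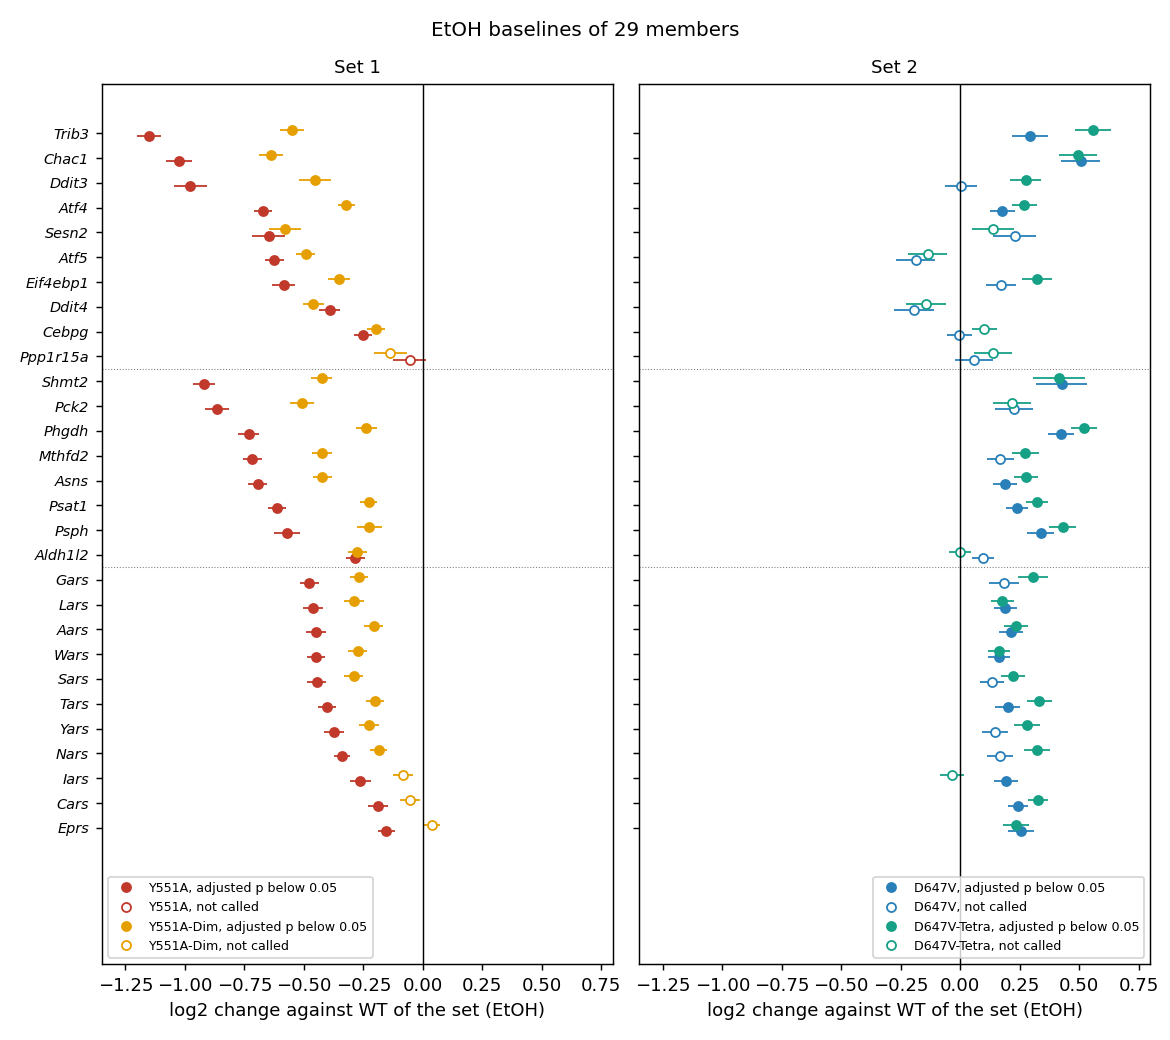
Log2 change in EtOH against WT of the same set (points, with SE as bars) for 29 genes ordered by role from regulators (top) through amino acid and one-carbon enzymes to tRNA synthetases (bottom). Set 1 points of Y551A all lie left of 0, reaching -1.15 for Trib3, and those of Y551A-Dim lie between them and 0 for most genes. Set 2 points lie mostly right of 0, up to 0.56.

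The 3 largest changes, Cth aside, were those of Trib3, Chac1 and Ddit3. Trib3, a pseudokinase that restrains ATF4, was at 94.3, 93.8 and 95.4 CPM in the WT EtOH libraries and at 41.9, 40.6 and 45.2 CPM in Y551A. Its change of -1.15 ± 0.05 (adjusted p = 1.05e-15) left 0.451 of the WT level. Chac1, which degrades glutathione, was at 71.9, 67.6 and 65.3 CPM in WT and 33.9, 33.1 and 33.8 CPM in Y551A (-1.03 ± 0.05, adjusted p = 2.5e-14). Ddit3, which encodes the stress factor CHOP, was at 33.3, 35.1 and 31.2 CPM in WT and 17.7, 17.2 and 15.7 CPM in Y551A (-0.98 ± 0.07, adjusted p = 1.16e-11). For these 3 genes Y551A held between 0.451 and 0.508 of the WT level, with no overlap of the groups. In such bulk RNA, fewer cells that express a gene and less RNA per cell cannot be told apart. The annotation holds 2 overlapping gene IDs named Ddit3, and counting by name pooled them.

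Atf4 mRNA itself was at 856, 861 and 835 CPM in WT and 532, 537 and 531 CPM in Y551A, a change of -0.67 ± 0.04 (adjusted p = 1.08e-13). ATF4 protein and eIF2 phosphorylation, at which the pathway is mainly controlled, were not measured. Sesn2 (-0.65 ± 0.07), a leucine sensor that restrains mTORC1, and Atf5 (-0.62 ± 0.04), a related factor under the same translational control, changed by similar amounts. Eif4ebp1 (-0.59 ± 0.05), a repressor of cap-dependent translation, Ddit4 (-0.39 ± 0.04), an mTORC1 inhibitor also called REDD1, and Cebpg (-0.25 ± 0.04), a dimer partner of ATF4, were also lower. In all, 9 of 10 regulators were lower in Y551A, with a median of -0.64.

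Enzymes of serine, glycine and one-carbon metabolism and of asparagine synthesis fell alongside. Shmt2, which makes glycine and one-carbon units in mitochondria, was at 278, 274 and 275 CPM in WT and 148, 139 and 149 CPM in Y551A (-0.92 ± 0.05, adjusted p = 1.52e-14). Pck2, the mitochondrial PEP carboxykinase, was at 174, 173 and 170 CPM in WT and 93.7, 90.8 and 99.2 CPM in Y551A (-0.87 ± 0.05, adjusted p = 3.72e-13). Phgdh, the entry enzyme of serine synthesis, was at 540, 535 and 524 CPM in WT and 328, 304 and 330 CPM in Y551A (-0.73 ± 0.05, adjusted p = 7.67e-13). In all 3, no Y551A library reached the lowest WT library.

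Mthfd2, a mitochondrial folate enzyme, was at 172, 172 and 165 CPM in WT and 104, 103 and 103 CPM in Y551A (-0.72 ± 0.04, adjusted p = 1.6e-13). Asns, asparagine synthetase, was at 787, 805 and 776 CPM in WT and 493, 487 and 483 CPM in Y551A (-0.69 ± 0.04, adjusted p = 2.43e-13). Psat1 (-0.61 ± 0.04) and Psph (-0.57 ± 0.05), the later steps of serine synthesis, and Aldh1l2 (-0.28 ± 0.04), a mitochondrial folate dehydrogenase, completed the group. Cth was at 0.194, 0.157 and 0.114 CPM in the WT EtOH libraries, a mean of 9.33 reads, and at 0 in all 6 Y551A libraries. The WT EtOH mean was 2.78 times a floor of 3 counts per Y551A EtOH library. This ratio is no lower bound, since the counting error of WT is left out and both mates of a pair were counted. All 9 tested enzymes were called lower in Y551A, and the median of the 8 without Cth was -0.71.

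All 11 synthetases were lower in Y551A, by smaller amounts, with a median of -0.40 and a range from -0.48 (Gars, glycyl-tRNA synthetase) to -0.15 (Eprs, the glutamyl-prolyl enzyme). Gars was at 238, 245 and 236 CPM in WT and 172, 173 and 172 CPM in Y551A (adjusted p = 1.05e-10). The 18 ATF4-pathway genes other than Cth had a median of -0.66, and no test compared the 2 lists.

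In Y551A-Dim, 25 of the 30 genes were lower than in WT in EtOH and none was higher, where 13.3% of all genes were called lower and 23.3% were called in either direction. The median was -0.28, against -0.011 for all genes tested. Chac1 was at 47.1, 43.4 and 41 CPM (-0.64 ± 0.05), Trib3 at 67.1, 66 and 60.4 CPM (-0.55 ± 0.05) and Ddit3 at 22.3, 25 and 25.6 CPM (-0.45 ± 0.07), each below all 3 WT libraries. Atf4 was at 666, 695 and 681 CPM (-0.32 ± 0.04), Asns at 588, 598 and 580 CPM (-0.42 ± 0.04) and Phgdh at 454, 466 and 435 CPM (-0.24 ± 0.04). The same held for Shmt2 at 209, 210 and 196 CPM, Pck2 at 122, 130 and 111 CPM and Mthfd2 at 128, 129 and 123 CPM, all below the lowest WT library. The genes not called were Ppp1r15a, Cth and the synthetases Iars (-0.08 ± 0.04), Cars (-0.06 ± 0.04) and Eprs (0.04 ± 0.03). Both lines were set against the same WT libraries.

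The 2 mutant lines of set 1 also differed from each other. In EtOH, 25 of the 30 genes were higher in Y551A-Dim than in Y551A and none was lower, where 14.8% of all genes were called higher and 29% in either direction. The largest differences were those of Trib3 (0.60 ± 0.05), Ddit3 (0.52 ± 0.07), Phgdh (0.49 ± 0.05) and Shmt2 (0.49 ± 0.05), besides Cth at the edge of detection. All 11 synthetases were higher, from 0.13 to 0.24. Sesn2 (0.07 ± 0.07), Ddit4 (-0.07 ± 0.04), Cebpg (0.06 ± 0.04), Aldh1l2 (0.01 ± 0.04) and Ppp1r15a (-0.08 ± 0.07) were not called. For 26 of 29 genes the EtOH means stood in the order Y551A, Y551A-Dim, WT from low to high. The share of all genes in that order was not computed.

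The direction was the other one in set 2. In D647V, 15 of the 30 genes were higher than in WT in EtOH and none was lower, where 4.58% of all 17535 genes tested were called higher and 7.36% in either direction. The median was 0.19, against 0.0002 for all genes. Chac1 was at 45 and 38.8 CPM in the WT libraries and 57.7, 59.2 and 61.7 CPM in D647V (0.51 ± 0.08, adjusted p = 0.000944). Phgdh was at 346 and 342 CPM in WT and 433, 480 and 471 CPM in D647V (0.42 ± 0.05, adjusted p = 0.000143). Shmt2 was at 188 and 201 CPM in WT and 260, 265 and 260 CPM in D647V (0.43 ± 0.11, adjusted p = 0.0226). In these 3 genes the groups did not overlap.

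Trib3, at 70.8 and 65.7 CPM in WT, was at 78.7, 89 and 83.2 CPM in D647V (0.29 ± 0.08, adjusted p = 0.0259). Atf4, at 634 and 619 CPM in WT, was at 669, 725 and 732 CPM (0.18 ± 0.05, adjusted p = 0.0469), and Asns, at 587 and 590 CPM, was at 645, 683 and 683 CPM (0.19 ± 0.05, adjusted p = 0.0298). Ddit3 was at 30.9 and 28.1 CPM in WT and 29.3, 29.5 and 29.8 CPM in D647V (0.00 ± 0.07, adjusted p = 0.987), so the D647V libraries lay inside the WT range. The synthetases gave 7 calls of 11, with all 11 changes between 0.13 and 0.25. The count of listed genes rested on single libraries, and that over all genes also shifted when 1 was left out. The count of listed genes was 4 without D647V EtOH replicate 2 and 6 without D647V EtOH replicate 3. It also fell without either WT EtOH library.

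In D647V-Tetra, 21 of the 30 genes were higher than in WT in EtOH and none was lower, where 9.35% of all genes were called higher, 9.34% lower and 18.7% in either direction. The WT libraries were the same as for D647V. The median was 0.27, against -0.0071 for all genes. Trib3 was at 103, 101 and 97.6 CPM (0.56 ± 0.08, adjusted p = 0.000117), Phgdh at 480, 486 and 514 CPM (0.52 ± 0.05, adjusted p = 1.33e-05) and Chac1 at 54.2, 60.3 and 62.7 CPM (0.50 ± 0.08, adjusted p = 0.000451). Ddit3, at 34, 37.4 and 35.6 CPM, was above both WT libraries (0.28 ± 0.07, adjusted p = 0.00751), as was Atf4 at 762, 724 and 780 CPM (0.27 ± 0.05, adjusted p = 0.00168). Among the synthetases 10 of 11 were higher, and the exception was Iars, isoleucyl-tRNA synthetase, at 164, 166 and 159 CPM against 160 and 174 CPM in WT (-0.03 ± 0.05).

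Between D647V-Tetra and D647V, 3 of the 30 genes differed in EtOH, where 0.53% of all genes were called higher, 4% lower and 4.53% in all. Ddit3 (0.27 ± 0.06, adjusted p = 0.0133) and Trib3 (0.27 ± 0.07, adjusted p = 0.0318) were higher in D647V-Tetra, and Iars (-0.23 ± 0.05, adjusted p = 0.0106) was lower. None of the 3 held throughout when 1 library was left out: without D647V EtOH replicate 1 or D647V-Tetra EtOH replicate 3 no gene was called. Across expressed genes, the D647V-Tetra minus D647V change in EtOH fell with exonic length (Spearman -0.519 over 10402 genes, a description), and Ddit3 and Trib3 are short genes. With an offset for length, Ddit3 (0.22, adjusted p = 0.0712) and Trib3 (0.23, adjusted p = 0.0863) were no longer called. For the EtOH baselines against WT, the same correlation was 0.196 (Y551A), 0.193 (Y551A-Dim), 0.0637 (D647V) and -0.300 (D647V-Tetra).

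The same comparisons were made between the Dex-treated libraries, as an alternative added after the data were seen. Scaling and spread came from the same fit over all groups as for EtOH, so the comparisons are not fully separate. In Y551A, 29 of 30 genes were again lower than in WT, where 22.1% of all genes were called lower, and these were the same 29 genes as in EtOH. In Y551A-Dim, 25 were lower (14% of all genes), 24 of them also called in EtOH. Ddit3 was the regulator that no longer differed there after Dex (-0.09 ± 0.07, adjusted p = 0.404). In D647V, 7 were higher (4.1% of all genes), 6 of them called in EtOH, and in D647V-Tetra 10 were higher and 2, Atf5 and Ddit4, were lower (5.55% of all genes higher, 6.85% lower), with 8 of the 12 called in EtOH in the same direction. The count in D647V-Tetra fell to 4 without WT Dex replicate 2 and to 7 without WT Dex replicate 1, and that in D647V fell to between 2 and 4 without either WT Dex library, D647V EtOH replicate 2, or D647V Dex replicate 1 or 3.

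**Figure D2:**
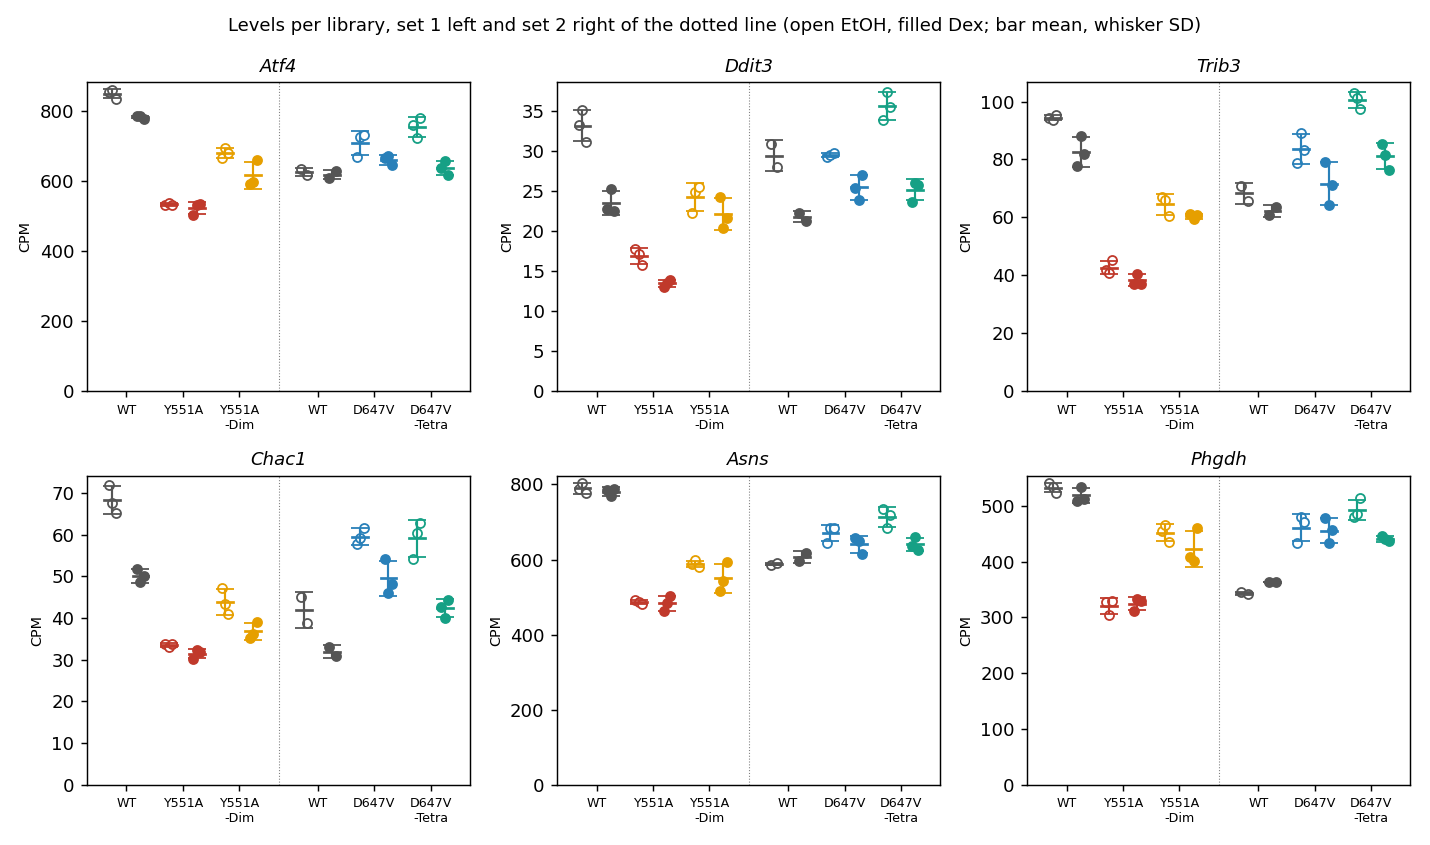
CPM of 6 genes in each of the 34 libraries (open points EtOH, filled points Dex) with the group mean as a bar and the SD as a whisker, with set 1 left and set 2 right of the dotted line. In set 1 the Y551A libraries are lowest in all 6 genes, and in set 2 the WT libraries are at or near the bottom for Trib3, Chac1, Asns and Phgdh in EtOH.

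In the WT line itself the listed genes were not read at the same level in both sets. The WT EtOH mean was lower in set 2 than in set 1 for 27 of 29 genes, with a median log2 ratio of -0.27. Each set was scaled by itself, and the matching share and median over all genes were not computed. Whether the shift is particular to these genes was therefore not tested. For Phgdh, Atf4, Trib3 and Chac1 the WT EtOH libraries of set 2 lay below all 3 of set 1. For 15 of the 29 genes the D647V and D647V-Tetra EtOH means of set 2 were both below the WT EtOH mean of set 1, again without a count over all genes. Library set and receptor form cannot be told apart for comparisons across sets, and no test was made of them.

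Other measures moved with the lines. Nr3c1, whose reads may come from the transgene, was higher than WT in Y551A (0.30 ± 0.03) and Y551A-Dim (0.15 ± 0.03) and lower in D647V (-0.24 ± 0.05) and D647V-Tetra (-0.37 ± 0.05), opposite in sign to the stress response genes. Among marker lists of other cells, the 3 basal markers, mostly Krt14, summed to between 4.98 and 5.58 CPM in WT EtOH of set 1, 18.7 and 19.9 CPM in Y551A EtOH, and 7.86 and 8.92 CPM in Y551A-Dim EtOH, with Krt5 under 1 CPM in every library. In set 2 they summed to between 8.05 and 8.30 CPM in WT EtOH and to between 3.27 and 4.34 CPM in both mutant lines. The 2 endothelial markers, Pecam1 and Cdh5, summed to at least 6.04 CPM in every WT EtOH library and to at most 3.73 CPM in every mutant EtOH library, and Pecam1 was under 1 CPM throughout. The 3 immune markers summed to between 2.15 and 4.34 CPM in the EtOH libraries, with overlap between lines within each set, and Ptprc and Adgre1 were under 1 CPM in every library. Between treatments, the endothelial sum in WT of set 2 was 6.04 to 6.58 CPM in EtOH and 9.05 to 9.36 CPM in Dex, and the immune sum ranged from 2.75 to 9.57 CPM among the Y551A-Dim Dex libraries. Their part in the result was not tested.

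Genes around the pathway were taken from lists of related genes. Among 18 tested other ATF4 targets, 14 were lower and 1 was higher in Y551A than in WT in EtOH, with a median of -0.39. Over all genes, 23.5% were called lower and 18.9% higher in that comparison. The lowest p-values were those of the glycine transporter gene Slc6a9 (-0.93 ± 0.05), the alanine aminotransferase gene Gpt2 (-0.85 ± 0.05) and the leucine transporter subunits Slc7a5 (-0.61 ± 0.04) and Slc3a2 (-0.55 ± 0.04). The one that was higher was Gdf15, a secreted stress cytokine (0.95 ± 0.39, adjusted p = 0.0499957), named after its value was seen. In Y551A-Dim 13 of the 18 were lower, where 13.3% of all genes were called lower. Gpt2 (-0.56 ± 0.05) and Slc7a5 (-0.45 ± 0.04) were again at the lowest p-values. In set 2, of 19 tested, 4 were higher in D647V, among them the cystine transporter gene Slc7a11 (0.24 ± 0.06, against -1.30 ± 0.09 in Y551A), and 3 in D647V-Tetra, and none was lower. Of all genes, 4.58% were called higher in D647V and 9.35% in D647V-Tetra.

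The other lists also moved in Y551A, where 23.5% of all genes were called lower and 18.9% higher. Of 12 other genes of cytosolic synthetases and their scaffold, 10 were lower in Y551A, with a median of -0.23, with the lowest p-values for Vars (-0.56 ± 0.05) and Mars (-0.31 ± 0.04). Of 17 mitochondrial synthetase genes 10 were lower and 1 higher (median -0.19). Of 15 genes for eIF2 kinases, eIF2 and eIF2B 10 were lower and 1 higher (median -0.17): the eIF2 subunits Eif2s2 (-0.32 ± 0.04) and Eif2s1 (-0.30 ± 0.04) were lower, and Ppp1r15b, the constitutive eIF2 phosphatase subunit, was higher (0.19 ± 0.03). Of 14 chaperone and folding genes of the ATF6 and XBP1 branches 10 were lower and 2 higher (median -0.17), with Edem1 (-0.41 ± 0.04) lower and Xbp1 (0.35 ± 0.04) higher. In D647V-Tetra the chaperone genes gave 7 higher calls of 14, among them Hspa5, the major chaperone of the endoplasmic reticulum (0.32 ± 0.06), and the other cytosolic synthetases gave 6 of 12. In that line 9.35% of all genes were called higher. Differences between these lists and the 32 genes were not tested.

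**Figure D3:**
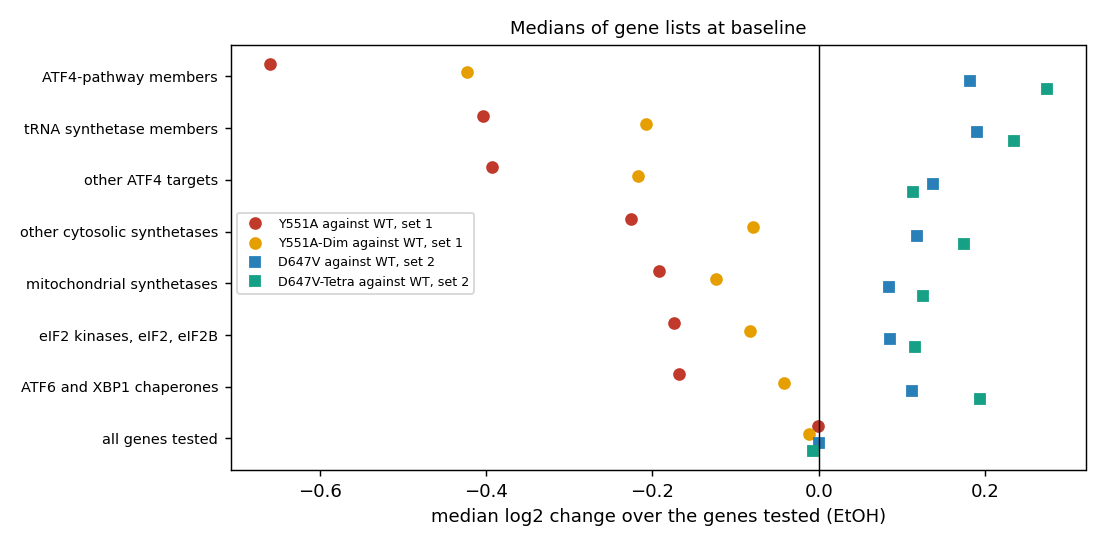
Median log2 change in EtOH against WT of the same set for 7 gene lists and for all genes tested (bottom row), with circles for set 1 and squares for set 2. All 7 lists lie left of 0 in Y551A and Y551A-Dim and right of 0 in D647V and D647V-Tetra, while the medians of all genes lie between -0.011 and 0.0002.

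After 2 h of Dex few of the genes changed in WT, and those that did went down. In set 1, 3 of 30 genes were lower and none was higher, where 1.4% of all genes were called lower and 3.4% in either direction. Ddit3 went from 33.3, 35.1 and 31.2 CPM in EtOH to 22.8, 25.3 and 22.5 CPM in Dex (-0.50 ± 0.07, adjusted p = 1.03e-05). Chac1 went from 71.9, 67.6 and 65.3 CPM to 51.8, 48.6 and 50 CPM (-0.45 ± 0.05, adjusted p = 7.14e-07), and Trib3 from 94.3, 93.8 and 95.4 CPM to 77.9, 88 and 81.9 CPM (-0.19 ± 0.05, adjusted p = 0.0202). The EtOH and Dex libraries did not overlap in any of the 3. The Trib3 call was lost without any one of the 3 WT EtOH libraries or without WT Dex replicate 1 or 3 (adjusted p from 0.0639 to 0.25).

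In set 2, WT gave 2 calls, both lower, where 0.376% of all genes were called lower and 1.72% in all. Ddit3 went from 30.9 and 28.1 CPM to 22.3 and 21.3 CPM (-0.43 ± 0.07, adjusted p = 0.00215). Chac1 went from 45 and 38.8 CPM to 33 and 30.9 CPM (-0.39 ± 0.09, adjusted p = 0.0274), and this call was lost without WT EtOH replicate 1 or either WT Dex library (adjusted p up to 0.305). In both sets these 2 genes fell by between 0.39 and 0.50 on the log2 scale. Atf4 was not called in either set (-0.12 ± 0.04, adjusted p = 0.0927, in set 1 and -0.02 ± 0.06 in set 2), nor was any of the 11 synthetases or the 9 enzymes.

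**Figure D4:**
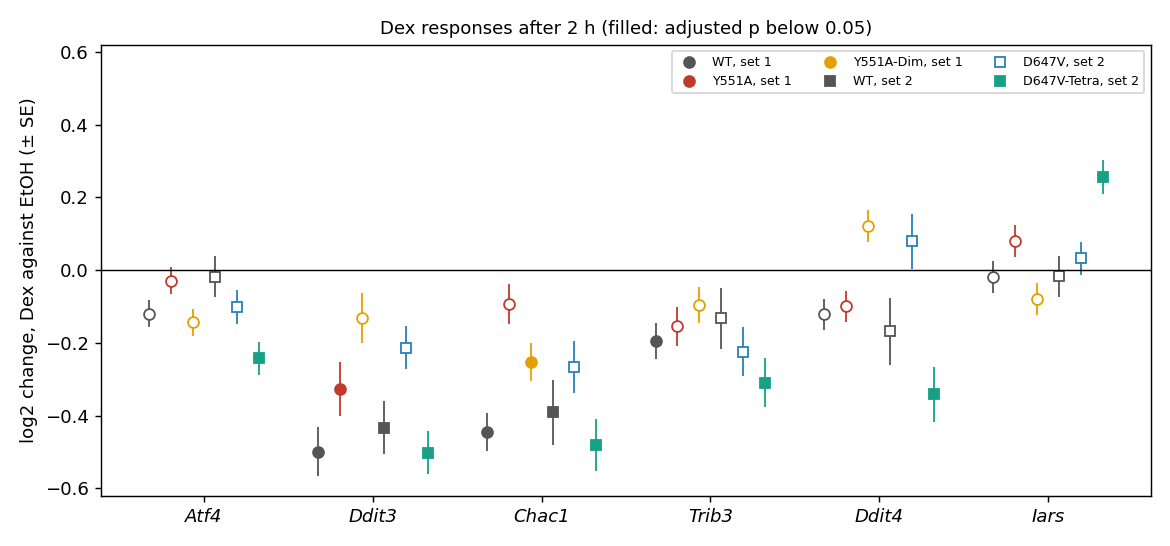
Log2 change after Dex against EtOH (points, with SE as bars) of 6 genes in the 6 line and set combinations, circles for set 1 and squares for set 2, filled where the adjusted p was below 0.05. Ddit3 and Chac1 lie below 0 in all 6, and Iars stands out above 0 in D647V-Tetra at 0.26.

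The mutant lines of set 1 gave 1 call each. In Y551A Ddit3 went from 17.7, 17.2 and 15.7 CPM to 13.1, 13.5 and 13.9 CPM (-0.33 ± 0.07, adjusted p = 0.0121), where 0.415% of all genes were called lower and 1.84% in all, and the call was lost without Y551A EtOH replicate 1 or 2 or Y551A Dex replicate 1 (adjusted p up to 0.108). In Y551A-Dim Chac1 went from 47.1, 43.4 and 41 CPM to 35.3, 36.1 and 39.1 CPM (-0.25 ± 0.05, adjusted p = 0.0118), where 0.192% of all genes were called lower, 0.898% higher and 1.09% in all. That call was lost without Y551A-Dim EtOH replicate 1 or Dex replicate 1, and without Y551A-Dim Dex replicate 3 the count rose from 1 to 7 of the 30 genes while that over all genes rose from 176 to 674. In D647V none of the 30 genes was called by edgeR, where 0.137% of all genes were called lower, 0.804% higher and 0.941% in all, although 7 of the 30 had an unadjusted p below 0.05, against 1249 of all 17535 genes, and DESeq2 called 1. Chac1 was at 57.7, 59.2 and 61.7 CPM in EtOH and 54.2, 46.1 and 48.3 CPM in Dex (-0.27 ± 0.07, adjusted p = 0.134), and Ddit3 at 29.3, 29.5 and 29.8 CPM and 25.4, 23.9 and 27.1 CPM (-0.21 ± 0.06, adjusted p = 0.155).

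D647V-Tetra gave the most calls, 10 lower and 1 higher, in a comparison in which 7.89% of all genes were called lower, 11.3% higher and 19.2% in either direction. Ddit3 went from 34, 37.4 and 35.6 CPM to 23.7, 26.1 and 25.8 CPM (-0.50 ± 0.06, adjusted p = 2.06e-05), Chac1 from 54.2, 60.3 and 62.7 CPM to 42.8, 40.1 and 44.3 CPM (-0.48 ± 0.07, adjusted p = 0.00025), and Trib3 from 103, 101 and 97.6 CPM to 85.4, 81.6 and 76.5 CPM (-0.31 ± 0.07, adjusted p = 0.00509). Ddit4 went from 141, 146 and 147 CPM to 109, 115 and 118 CPM (-0.34 ± 0.08, adjusted p = 0.00573), and Atf4 from 762, 724 and 780 CPM to 639, 659 and 618 CPM (-0.24 ± 0.05, adjusted p = 0.00194). No Dex library of these 5 genes reached its lowest EtOH library.

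Smaller falls in D647V-Tetra were called for Phgdh (-0.16 ± 0.05), from 480, 486 and 514 CPM to 446, 440 and 436 CPM, and for Asns (-0.15 ± 0.04), from 736, 683 and 719 CPM to 637, 660 and 624 CPM. Psat1 (-0.14 ± 0.04), Nars (-0.14 ± 0.05) and Sars (-0.13 ± 0.05) were called as well, but not with a replicate block (adjusted p = 0.0547, 0.0785 and 0.0831) or without the low-count filter (0.0821, 0.0571 and 0.0938). With only the 2 groups compared in the fit, all 5 of these smaller falls lost their calls (adjusted p from 0.0588 to 0.114). Iars rose from 164, 166 and 159 CPM to 206, 189 and 188 CPM (0.26 ± 0.05, adjusted p = 0.00125), the one rise of a listed gene after Dex in any line. The calls of Ddit3, Chac1, Trib3, Ddit4, Atf4 and Iars held without any 1 library, whereas those of the other 5 did not, and the count was 6 without D647V-Tetra EtOH replicate 3 or without D647V-Tetra Dex replicate 1 or 3.

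In D647V-Tetra the change after Dex moved with gene length. Over 10402 expressed genes the Spearman correlation of the change with exonic length was 0.576, the genes sharing these 6 libraries, with a median change of -0.20 for genes under 2 kb and 0.04 for those from 4 kb. In the other lines of set 2 the correlation was -0.206 (WT) and 0.252 (D647V). In set 1 it was 0.0786 (WT), 0.167 (Y551A) and -0.0006 (Y551A-Dim). Ddit3 (1713 exonic bases), Chac1 (1637) and Ddit4 (1755), with the largest falls, are also the shortest of the 30 genes, while Atf5 (1993 bases) was at -0.15 ± 0.07 and not called. With an offset fitted for length, chosen after the data were seen, 9 genes were called in place of 11, with Ddit3 at -0.45, Chac1 at -0.42, Ddit4 at -0.29, Trib3 at -0.27, Atf4 at -0.20 and Iars at 0.23, all still called. Sars was also still called (-0.15, adjusted p = 0.0475). The calls of Asns, Psat1, Phgdh and Nars were lost (adjusted p from 0.0567 to 0.0821), so the 9 include genes that were not among the 11.

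**Figure D5:**
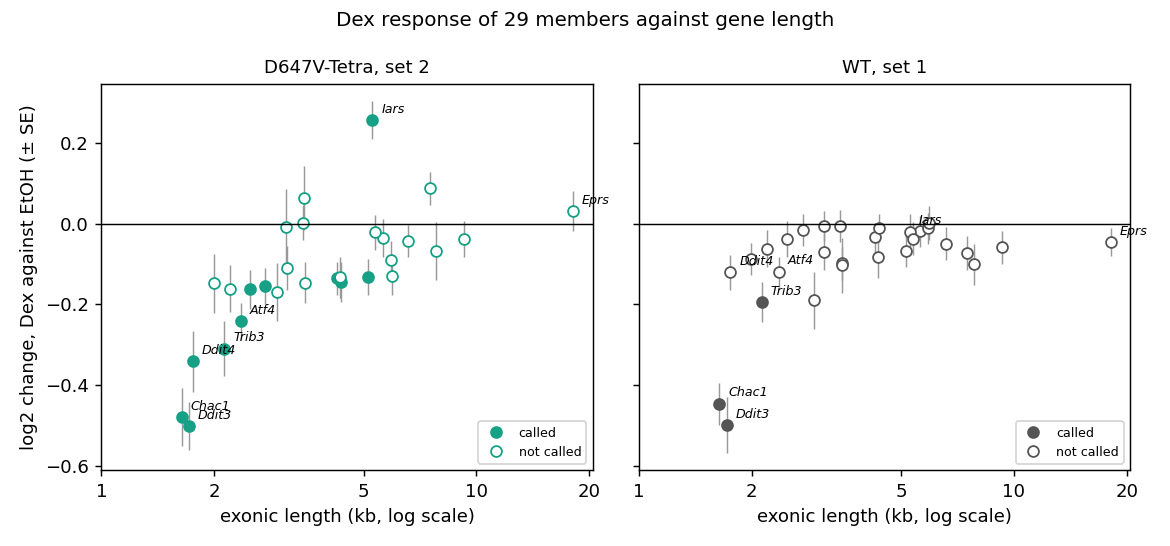
Log2 change after Dex (points, with SE as bars) of 29 genes against exonic length on a log axis, for D647V-Tetra (left) and for WT of set 1 (right), filled where called. In D647V-Tetra the change climbs from about -0.50 for the shortest genes towards 0 for the longest, with Iars above at 0.26. In WT, Ddit3 and Chac1 lie at -0.50 and -0.45 and the other genes between -0.19 and 0.00.

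The Dex responses themselves were compared between lines by interaction terms, which gave 1 call each in 3 of 6 comparisons. The fall of Chac1 was smaller in Y551A than in WT by 0.35 ± 0.08 (adjusted p = 0.0482), where 0.062% of all genes were called higher, 0.118% lower and 0.18% in all: in Y551A Chac1 was at 33.9, 33.1 and 33.8 CPM in EtOH and 30.2, 32.4 and 31.8 CPM in Dex (-0.09 ± 0.05). The response of Ddit4 was higher in Y551A-Dim than in WT by 0.24 ± 0.06 (adjusted p = 0.0382), where 0.589% of all genes were called higher, 0.886% lower and 1.47% in all. Ddit4 was at 187, 170 and 182 CPM in WT EtOH and 165, 167 and 163 CPM in WT Dex, but at 131, 138 and 122 CPM in Y551A-Dim EtOH and 144, 136 and 146 CPM in Y551A-Dim Dex, where the treatments overlapped. Neither response of Ddit4 was called by itself (-0.12 ± 0.04 and 0.12 ± 0.04).

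The response of Iars was higher in D647V-Tetra than in WT of set 2 by 0.27 ± 0.07 (adjusted p = 0.0439), where 3.7% of all genes were called higher, 0.713% lower and 4.41% in all. In WT of set 2 Iars was at 160 and 174 CPM in EtOH and 166 and 164 CPM in Dex. Leaving out 1 library ended the Chac1 call in 12 of 18 cases (adjusted p up to 0.217), the Ddit4 call in 10 of 18 (up to 0.148) and the Iars call in 12 of 16 (up to 0.291). The Chac1 call was also lost when only library totals were used for scaling (adjusted p = 0.0594), that of Ddit4 when only the 4 groups compared were fitted (adjusted p = 0.0713), and that of Iars with the length offset (adjusted p = 0.0704). For Ddit3 the difference was 0.37 ± 0.10 between Y551A-Dim and WT (adjusted p = 0.0555) and 0.17 ± 0.10 between Y551A and WT (adjusted p = 0.856). In the other 3 comparisons, Y551A-Dim against Y551A, D647V against WT and D647V-Tetra against D647V, 0.558% (0.458% lower), 0.188% (0.182% lower) and 0.873% (0.776% higher) of all genes were called and none of the 30.

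Few genes of the surrounding lists answered Dex. Cebpb, a bZIP factor that pairs with ATF4 and a known GR target, rose in WT of set 1 (0.88 ± 0.06), WT of set 2 (0.92 ± 0.17) and Y551A (0.54 ± 0.06), and Herpud1, a gene of endoplasmic reticulum protein disposal, rose in WT of both sets (0.33 ± 0.05 and 0.27 ± 0.06), Y551A-Dim (0.23 ± 0.05) and D647V-Tetra (0.48 ± 0.05). Slc38a2, an amino acid transporter, fell in WT of set 1 (-0.12 ± 0.03, adjusted p = 0.042). The list counts in D647V-Tetra are read against all genes, of which 11.3% were called higher, 7.89% lower and 19.2% in either direction. In D647V-Tetra, 5 of 14 chaperone and folding genes were called, Herpud1 higher and Manf (-0.22 ± 0.06), Xbp1 (-0.17 ± 0.05), Hspa5 (-0.16 ± 0.05) and Calr (-0.16 ± 0.05) lower. In the same line, 3 of 19 other ATF4 targets were called: Vegfa (0.41 ± 0.05), which was also called in Y551A-Dim (0.26 ± 0.05), and Slc7a1 (0.24 ± 0.05), an arginine and lysine transporter gene, were higher, and Nupr1 (-0.57 ± 0.07) was lower. Of 12 other cytosolic synthetase and scaffold genes Aimp2 alone was called (-0.18 ± 0.06), and of 17 mitochondrial ones Mars2 (0.20 ± 0.06) and Nars2 (0.17 ± 0.06) were. None of either list was called after Dex in the other lines.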

How the data were processed

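RNA-seq counts per gene name were deposited for 34 libraries. Per the file headers, the authors counted reads on exons with featureCounts 2.0.3, strand option 2, on GENCODE M21 (mm10), without an option to count pairs once, so both mates entered the counts; bcl2fastq 2.17, cutadapt and STAR are named in the submitters' processing notes. The exon length of each gene, in the deposited tables, gave the levels per kb. From the deposited counts, edgeR 4.0.16 (R 4.3.3; limma 3.58.1) was fitted for each set over all groups, with filterByExpr, TMM scaling and the quasi-likelihood test, and called genes had a Benjamini-Hochberg adjusted p below 0.05 over all genes. The common biological variation was 5.13% in set 1 (12 residual degrees of freedom) and 8.62% in set 2 (10). SE is the size of the log2 change over the square root of F. CPM use TMM-scaled library sizes. The fit was tested on simulated data. Libraries of a group gave a chi-square per degree of freedom of 2.86 to 70.4 over 32 pairs, and none was merged. Counting both mates also raises this value, so the lowest values may be near counting noise. The 5% Drosophila spike-in was not used, and 2 kits named in the labels could not be assigned to libraries, beyond the 2 sets.

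The 32 genes and the related lists were chosen with earlier results of these data known. Values in every library are given for Atf4, Ddit3 and Asns, for up to 8 genes called in a Dex response or difference (lowest adjusted p first) and for the 10 largest called baseline changes against WT, and other genes by ranges; from other lists at most 4 genes with the lowest adjusted p are named. Alternatives were other scalings, no filter, DESeq2 1.42.0, a replicate block, fits on only the groups compared and leaving out each library. A length offset, crossed replicate numbers and the comparison of Dex-treated levels were added after the data were seen. The sequence around the match of 1 gene is not reported here.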

Additional observations from a re-analysis of the deposited data

Results flagged for a closer look

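A test of the difference between lines called 3 Dex responses. In the same comparisons 0.18% (Y551A), 1.47% (Y551A-Dim) and 4.41% (D647V-Tetra) of all genes were called. The log2 response of Chac1 was higher in Y551A than in WT of set 1 by 0.35 ± 0.08 (SE, adjusted p = 0.0482 by edgeR). The response of Ddit4 was higher in Y551A-Dim than in WT of set 1 by 0.24 ± 0.06 (adjusted p = 0.0382). The response of Iars was higher in D647V-Tetra than in WT of set 2 by 0.27 ± 0.07 (adjusted p = 0.0439). Scaling by library totals or a replicate block ended the Chac1 call, and fitting only the groups compared ended that of Ddit4. The Iars call was lost with the length offset, either replicate block, relative log expression scaling or a fit of only the groups compared. Leaving out 1 library ended these calls in 12 of 18, 10 of 18 and 12 of 16 cases. Groups of 2 or 3 libraries were too small to look for single outlying libraries.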

How the results depend on the processing

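Cth aside, no called change of a listed gene reversed its direction under any alternative among those tested. Sign changes of values that stayed uncalled were not counted. With 1 library left out, the number of the 30 genes called ranged from 29 to 29 (Y551A), 25 to 25 (Y551A-Dim), 4 to 18 (D647V) and 15 to 23 (D647V-Tetra) against WT in EtOH, 21 to 25 for Y551A-Dim against Y551A and 0 to 3 for D647V-Tetra against D647V. After Dex it ranged from 2 to 4 (WT, set 1), 0 to 1 (Y551A), 0 to 7 (Y551A-Dim), 1 to 3 (WT, set 2), 0 to 2 (D647V) and 6 to 14 (D647V-Tetra), while the count over all genes ranged from 411 to 616, 223 to 324, 87 to 674, 195 to 350, 121 to 187 and 1344 to 4023. For differences of responses against WT it ranged from 0 to 1 (Y551A), 0 to 2 (Y551A-Dim), 0 to 0 (D647V) and 0 to 4 (D647V-Tetra), with 0 to 1 between mutants. For Dex-treated levels it ranged from 27 to 29, 24 to 26, 2 to 7 and 4 to 13 in the same order. Over all genes, the EtOH counts of set 1 against WT ranged from 5994 to 7058 (Y551A) and 2588 to 4045 (Y551A-Dim). Between these lines the count ranged from 3976 to 4984. For differences of responses against WT, the set 1 counts ranged from 17 to 48 and 194 to 335. For Dex-treated levels they ranged from 5907 to 6815 and 3247 to 4416. In set 2 the counts over all genes also shifted widely with the library left out, so such shifts were not confined to the listed genes. Where a group was left with 1 library, it was assumed to vary like the others.

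Fitting only the groups compared gave 5 in place of 3 genes for Dex in WT of set 1, 0 in place of 1 in Y551A-Dim, 1 in place of 2 in WT of set 2, 6 in place of 11 in D647V-Tetra and 9 in place of 15 for D647V at baseline. For differences of responses it gave 0 in place of 1 in Y551A-Dim and D647V-Tetra against WT, and 1 in place of 0 between D647V-Tetra and D647V. Over all genes it gave 864 in place of 549 (Dex, WT of set 1), 46 in place of 176 (Dex, Y551A-Dim), 70 in place of 29 (difference, Y551A), 457 in place of 774 (difference, D647V-Tetra against WT), and, at baseline, 761 in place of 1290 (D647V), 1876 in place of 3277 (D647V-Tetra) and 235 in place of 795 (D647V-Tetra against D647V).

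DESeq2 called 2 genes in place of 1 for Dex in Y551A-Dim, 1 in place of 0 in D647V and 5 in place of 3 for D647V-Tetra against D647V at baseline. For differences it called 2 in place of 1 (Y551A-Dim), 7 in place of 1 (D647V-Tetra against WT), 1 in place of 0 (Y551A-Dim against Y551A) and 3 in place of 0 (D647V-Tetra against D647V). Its counts over all genes were 321, 55, 1426, 62, 1755 and 465 for Dex in Y551A-Dim, the Y551A difference, the D647V-Tetra against D647V baseline, and the differences of D647V, of D647V-Tetra against WT and of D647V-Tetra against D647V, in place of 176, 29, 795, 33, 774 and 153. For the same 6, without the low-count filter they were 491, 109, 1956, 244, 2424 and 936. The unfiltered fit also gave 422 in place of 238 and 250 in place of 90 for Y551A-Dim differences, 583 in place of 302 for Dex in WT of set 2 and 380 in place of 165 in D647V. Of the 30 genes it called 2 for Dex in Y551A-Dim, 2 in D647V, 2 for the Y551A-Dim and 2 for the D647V-Tetra difference against WT, and 1 for each difference between mutants.

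Scaling by library totals called 2 genes for Dex in Y551A-Dim, 0 for the Y551A difference, 2 for the D647V-Tetra difference, and 13 in place of 7 for Dex-treated D647V, with 76 in place of 153 of all genes for the difference between D647V-Tetra and D647V. Relative log expression scaling called 2 for the Y551A-Dim and 0 for the D647V-Tetra difference. The length offset called 1 in place of 3 for D647V-Tetra against D647V (227 of all genes), 2 for the Y551A-Dim difference and 0 for the D647V-Tetra difference (379 of all genes; 76 against D647V).

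Same-numbered libraries deviated together in 9 of 45 pairs of set 1 (correlation above 0.1; range -0.27 to 0.31) and 13 of 36 of set 2 (-0.68 to 0.62), so the numbers were not taken to pair the libraries. With the replicate block, 0 genes were called for the Y551A and for the D647V-Tetra difference against WT and 4 in place of 7 for Dex-treated D647V, and Psat1, Nars and Sars lost their calls for Dex in D647V-Tetra, also with the crossed numbers. Over all genes the block gave 502 in place of 795 (D647V-Tetra against D647V at baseline), 431 in place of 774 and 82 in place of 153 (D647V-Tetra differences) and 1062 in place of 1651 (Dex-treated D647V). A block with crossed WT Dex numbers, chosen after the data were seen, called 9 at baseline in D647V, 0 for the D647V-Tetra difference and 4 for Dex-treated D647V, with 503 and 97 of all genes for the D647V-Tetra differences. The cause of these shifts was not tested. Depth limited Cth, Vldlr and Stc2 only among the 32 genes.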
